A study of Mus musculus with 8 samples.

Results

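Cytosolic ribosomal protein genes encode the protein part of the ribosome that translates nuclear-encoded messenger RNA. They were taken as the protein-coding rows of the deposited count table whose symbol is Rpl or Rps with a number and at most 1 further letter a, l, x or y, together with Rplp0, Rplp1, Rplp2 and Rpsa. Of 54532 genes in the table, 80 matched by name, and the 77 with at least 10 counts in at least 2 libraries were kept: 46 of the large and 31 of the small ribosomal subunit. Rpl10l (0 counts in every library), Rpl39l (0 to 6 counts) and Rpl3l (0 to 8 counts), copies that resemble Rpl10, Rpl39 and Rpl3, were not kept. The name rule also passes over genes whose products sit in the ribosome under other symbols, such as Rps3a1 (7036 to 11066 counts, named after its values were seen), Fau and Rack1. None of the 77 genes differed between groups at an adjusted p of 0.05 in the analysis of all genes tested, while the genes tended to go up and down together from library to library.

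Each ribosome carries one copy of nearly every one of these proteins, and cells therefore hold their messenger RNAs at broadly similar, high levels. Many of these messenger RNAs begin with a run of pyrimidines, the terminal oligopyrimidine (TOP) tract, through which the mTOR pathway and the RNA-binding protein LARP1 set how much of them is translated and kept. In neurons, ribosomal protein messenger RNAs are also found in dendrites and axons.

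The samples were brains of mice perfused with phosphate-buffered saline, sequenced as messenger RNA profiles of 8 libraries in 4 groups of 2. WT mock and WT stress were wild-type mice, mock-treated or held under chronic restraint stress. CAA mock and CAA stress were mice described as having cerebral amyloid angiopathy, the deposition of amyloid-beta in cerebral vessel walls, under the same 2 treatments. The sources used here do not give the transgene or strain behind CAA, its promoter, the age or sex of the mice, the brain part sampled, or whether replicates were separate animals. The p-values therefore reflect the spread among these 8 libraries, and how much of it is technical is not known.

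Each library carries the name of its group and its replicate number, and they held 17275201 to 18894657 gene counts. Xist, the RNA that coats the inactive X chromosome, had 4575 counts in WT mock 1 and 3340 in CAA stress 1 against 0 to 24 in the other 6. The Y-linked Ddx3y had 0 counts in those same 2 libraries and 1280 to 1732 in the other 6. The replicates of WT mock, and those of CAA stress, thus differed in sex-linked transcripts and cannot come from the same mouse. Markers of the striatum summed to 215 CPM (counts scaled to a common library size) in WT mock 1 and 190 in CAA mock 2, and to between 791 and 1563 CPM in the other 6 libraries. The defining markers of neurons (8 genes), astrocytes (6), oligodendrocytes (7) and microglia (6) had counts in every library.

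The letters at the annotated gene starts differed from gene to gene, and where transcripts begin in these samples was not measured. RefSeq (GRCm38.p6) start sequences were matched for 57 of the 77 genes. The 30 bases shown run from 10 bases before the annotated start through the first 20 transcribed bases, 5′ to 3′ on the gene's strand. Capitals mark a TOP-like tract, defined as a C within 3 bases of the start followed by at least 4 bases that are all C or T. The first 6 genes were set by role, and Rps27 and Rps9 were added after their values were seen because they appear among the results below.
Rplp0, chr5:115559457-115559486, plus strand: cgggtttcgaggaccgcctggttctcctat
Rpsa, chr9:120127756-120127785, plus strand: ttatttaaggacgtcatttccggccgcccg
Rps6, chr4:86857348-86857377, minus strand: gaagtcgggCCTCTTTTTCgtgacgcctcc
Rpl5, chr5:107900518-107900547, plus strand: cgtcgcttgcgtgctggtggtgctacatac
Rps19, chr7:24884582-24884611, plus strand: aatctcgcgagactcgacgcccgacttgtg
Rpl38, chr11:114668570-114668599, plus strand: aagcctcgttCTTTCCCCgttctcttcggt
Rps27, chr3:90213629-90213658, minus strand: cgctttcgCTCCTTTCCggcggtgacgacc
Rps9, chr7:3704031-3704060, plus strand: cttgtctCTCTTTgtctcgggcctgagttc

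A TOP-like tract stood at a start of 24 of the 57 matched genes (42.1%), against 13.5% of all 27025 genes in the same table. Of the 6 genes set by role, Rps6 and Rpl38 carry it at their listed start, and Rplp0, Rpsa, Rpl5 and Rps19 do not have these letters in that window. In the 300 bases from 250 before to 50 after the start, read on both strands, CCGGAAG, the core bound by ETS factors, was present in 42.1% of the matched genes and 9.93% of all genes. ATGGCGG, the YY1 core, was in 17.5% and 4.69%, and CTCGCGAG was in 12.3% and 1.04%. GGGCGG, the Sp1 core, was in 61.4% against 38.2%. The Sp1 core can overlap the ETS core or the YY1 core by shared end letters. These are letter matches in annotated windows and were compared without a test.

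The ribosomal protein genes were among the more abundant messages of the brain. By FPKM, a deposited level that divides counts by gene length and library size, 53 of the 77 lay within the 500 highest of 22046 protein-coding genes and 65 within the 1000 highest. The median gene had a mean of 101.8 FPKM, and 52 of the 77 lay within 2-fold of that value. Rplp1, a protein of the stalk that recruits translation factors, was the highest at 1225 ± 224 FPKM (SD, n = 8). Rps15 followed at 528 ± 78.2, Rpl4, which lines the exit tunnel, at 326 ± 26.9, Rps14 at 321 ± 54.0 and Rpl36 at 293 ± 67.7 FPKM. Rps15 lay above Rpl4 in every library, while Rpl4, Rps14 and Rpl36 overlapped one another across libraries.

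At the other end, Rps10 had 0.491 FPKM, Rpl24 2.11, Rpl13a 9.42, Rps27l 13.0 and Rps28 14.5 FPKM as means of 8 libraries. Rps10 rested on 12 to 35 counts per library and Rpl24 on 20 to 67, while 70 of the 77 genes had over 1000 counts in every library. The gene length in the deposited table joins all annotated exons, which for Rps19 comes to 4685 bases against 633 for its main transcript. With counts per kilobase of 1 GENCODE transcript per gene, the order changed (Spearman rho 0.699 across genes, which are not independent replicates) and the genes lay closer together, 62 of 77 within 2-fold of the median. Rplp1 and Rps10 kept the top and bottom place, and the ratio between them was 2493 by FPKM and 537 by transcript length.

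**Figure D1:**
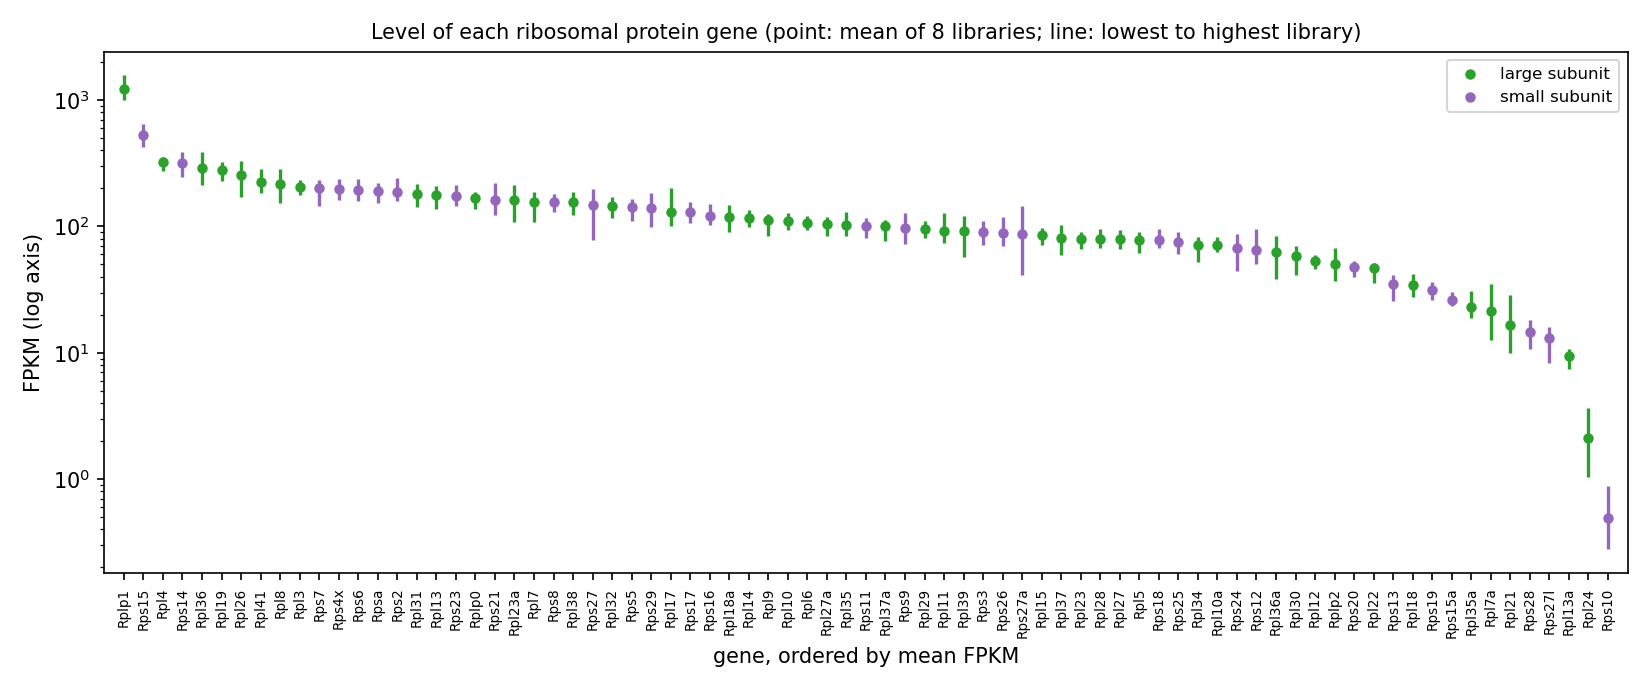
Mean FPKM of each of the 77 ribosomal protein genes over 8 libraries (points) on a log axis, with a line from the lowest to the highest library, coloured by subunit. Rplp1 stands highest at 1225 FPKM, most genes lie near the median of 101.8, and Rps10 and Rpl24 lie far below the rest.

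Reads of some of these genes cannot be assigned with certainty. Exons of another annotated gene on the same strand cover 91.6% of the Rps10 transcript (RPS10-NUDT3), 71.5% of Rpl24 (Gm28037) and 59.3% of Rpl13a (Gm45713), and those 3 overlapping genes have 0 counts in every library. Processed copies of ribosomal protein genes also took reads: of 289 annotated genes named as Rpl or Rps pseudogenes, 155 had counts, in sum 4.6 to 5.1 counts for every 100 on the parent genes. Rps10-ps2 averaged 746 counts against 20.6 for Rps10, Rpl17-ps10 3256 against 1847 for Rpl17, and Rpl21-ps15 1294 against 1015 for Rpl21. Pseudogenes held 97.7%, 72.7% and 59.2% of the reads on these 3 families, so the levels and fold changes of Rps10, Rpl24, Rpl13a, Rpl17 and Rpl21 are uncertain. Leaving these 5 genes out moved the median fold changes given below by at most 0.011 on the log2 scale.

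Library by library, the 77 genes took 1.5% of the counts in WT mock 1, 1.74% in WT mock 2, 1.48% in WT stress 1 and 1.69% in WT stress 2. In CAA they took 1.92% in CAA mock 1, 1.86% in CAA mock 2, 1.90% in CAA stress 1 and 1.49% in CAA stress 2. Counting error was small beside these differences: the exact binomial 95% interval ran from 1.498% to 1.509% in WT mock 1 and from 1.481% to 1.492% in CAA stress 2. CAA mock lay above WT mock without overlap, at 1.89 ± 0.04% against 1.62 ± 0.17% (SD, n = 2 each). CAA stress spanned nearly the whole range, at 1.70 ± 0.30%, and WT stress was at 1.59 ± 0.15%. In bulk tissue, more cells rich in ribosomes and more message per cell cannot be told apart.

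A similar pattern appeared gene by gene. From each gene's log2 CPM, normalised by the trimmed mean of M-values (TMM), that gene's mean over all libraries was subtracted, and the median over the 77 genes was taken per library. This median was -0.16 in WT mock 1, 0.06 in WT mock 2, -0.16 in WT stress 1, -0.01 in WT stress 2, 0.21 in CAA mock 1, 0.13 in CAA mock 2, 0.18 in CAA stress 1 and -0.26 in CAA stress 2. CAA stress 1 and 2 thus lay 0.44 apart, while the group means lay at most 0.25 apart, and the pooled SD within groups was 0.18. Large and small subunit genes had like values, with medians of 0.20 and 0.22 in CAA mock 1 and -0.21 and -0.28 in CAA stress 2. Of the 77 genes 26 had their highest level in CAA mock 1, 25 in CAA mock 2 and 24 in CAA stress 1. Over all genes tested, 10.2%, 16.2% and 12.1% were highest in these libraries. The lowest level was in CAA stress 2 for 44 genes, in WT stress 1 for 23 and in WT mock 1 for 9. The shares of all genes tested that were lowest in these libraries were 18.2%, 14.2% and 9.999%, in the same order.

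**Figure D2:**
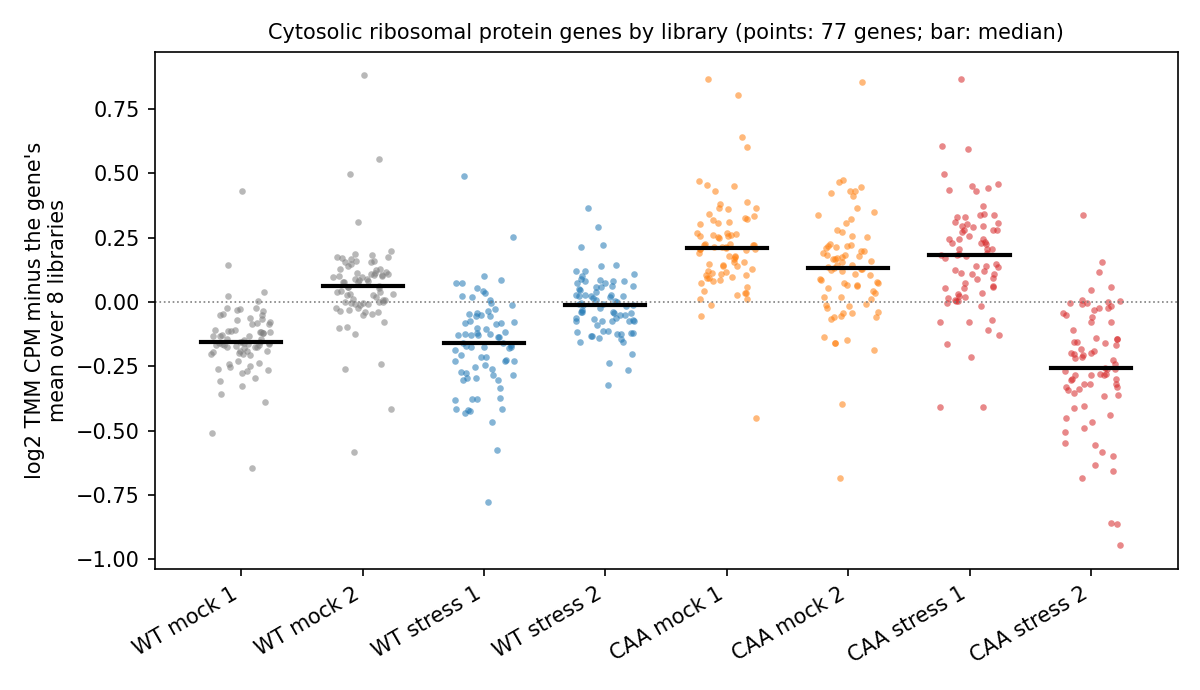
Deviation of each of the 77 genes (points) from its own mean over the 8 libraries, in log2 TMM-normalised CPM, with the median as a bar and groups by colour. The bars of CAA mock 1, CAA mock 2 and CAA stress 1 lie at 0.21, 0.13 and 0.18, and the bar of CAA stress 2 lies at -0.26.

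Mock-treated mice give CAA against WT without stress, and here all 77 genes had a positive log2 fold change for CAA over WT, with a median of 0.19 and a range of 0.03 to 0.77. The median of all 17182 genes tested was 0.00, and 50.7% of them were positive. None of the 77 passed the threshold (edgeR quasi-likelihood test over all genes tested, smallest adjusted p = 0.998), where 0.0116% of all genes tested were called. 2 of the 77 had an unadjusted p under 0.05, which is 2.6%, against 4% of all genes. Both CAA mock libraries lay above both WT mock libraries for 33 of the 77, against 16.2% of all genes tested, and below them for 0, against 16.7%. Among those 33 were the stalk protein gene Rplp0, the S6 kinase substrate gene Rps6, Rpl11, Rps3 and Rpl22. Without WT mock 1, a library of high Xist and low striatal markers, the median was 0.09, with 65 of 77 positive. The number positive was 64 without CAA mock 1, 73 without CAA mock 2 and 77 without WT mock 2. It was 59 without WT mock 1 and CAA mock 2 together. With the GC and length correction described below, the median was 0.05.

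Rpl17 had 78.3 and 101 CPM in WT mock and 157 and 107 CPM in CAA mock, and gave the smallest unadjusted p of this comparison. Its log2 fold change was 0.55 ± 0.21 (SE, edgeR adjusted p = 0.998), and its pseudogenes took more reads than it did. Rps21, a small subunit protein gene, had 116 and 122 CPM in WT mock and 181 and 143 CPM in CAA mock (0.45 ± 0.20, edgeR adjusted p = 0.998). Rps28 had 16.1 and 21.7 CPM against 26.1 and 26.9 CPM (0.49 ± 0.23, edgeR adjusted p = 0.998). The groups did not overlap for any of these 3 genes.

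Under stress, CAA against WT gave a split picture: 47 genes were positive and 30 negative, with a median log2 fold change of 0.06 and a range of -0.89 to 0.60 (all genes tested, median 0.01). No gene of the 77 passed (edgeR, 0.0116% of all genes called), and 8 had an unadjusted p under 0.05, 5 positive and 3 negative (10.4%, against 8.22% of all genes). CAA stress lay above WT stress without overlap for 16 genes (19.5% of all genes tested) and below for 9 (20.4%). The 2 CAA stress libraries differed more than the groups did. Without CAA stress 1 the median was -0.17, and without CAA stress 2 it was 0.25. Without WT stress 1 it was -0.01.

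Rpl36 and Rpl8 were on the positive side. Rpl36 (chr17:56613416-56614243, mm10) had 82.8 and 99.3 CPM in WT stress and 152 and 123 CPM in CAA stress (log2 fold change 0.60 ± 0.21, edgeR adjusted p = 0.579). Rpl8 had 211 and 277 CPM in WT stress and 395 and 300.3 CPM in CAA stress (0.51 ± 0.19, edgeR adjusted p = 0.579). Rpl11, which with Rpl5 can bind the p53 regulator Mdm2, had 0.47 ± 0.21 (edgeR adjusted p = 0.6), while Rpl5 had -0.19 ± 0.17. Rps27 was on the negative side, at -0.89 ± 0.21 (edgeR adjusted p = 0.579).

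Stress in CAA mice gave mostly negative values, 64 of 77, with a median log2 fold change of -0.21 and a range of -0.88 to 0.15 (all genes tested, median 0.01). None passed the threshold in edgeR, as for all genes tested (0%, smallest adjusted p among the 77 of 0.696). 9 had an unadjusted p under 0.05, all 9 negative (11.7%, against 6.94% of all genes). CAA stress lay below CAA mock without overlap for 24 of the 77 (19% of all genes tested) and above for 0 (18.3%). The median rested on 1 library: without CAA stress 2 it was 0.01, and without CAA stress 1 it was -0.43. By median deviation, CAA stress 2 was also lowest in the 13 genes of the mitochondrial genome (-0.53) and in the myelin markers (-0.60). By summed CPM, the lowest myelin value was in WT stress, at 5936 against 6070 in the lower CAA stress library. The part of the mitochondrial or the myelin genes in the result was not tested.

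Rps27 (chr3:90212522-90213651, mm10), a small subunit protein with a zinc finger, stood out in the CAA stress group. It had 142, 187, 179 and 185 CPM in WT mock 1, WT mock 2, WT stress 1 and WT stress 2, 155 and 208 CPM in CAA mock, and 114 and 83.0 CPM in CAA stress. Both CAA stress libraries were thus the lowest of the 8. The log2 fold change for stress in CAA was -0.88 ± 0.21 (0.542-fold, edgeR unadjusted p = 0.00139), with an adjusted p of 0.696 in edgeR and 0.0612 in DESeq2. For stress in WT it was 0.15 ± 0.21, and the interaction was -1.03 ± 0.29 (edgeR unadjusted p = 0.00489 and adjusted p = 0.995). Its retrogene copy Rps27rt had 991, 714, 1317, 1294, 612, 1852, 737 and 534 counts in the order of the libraries WT mock 1 to CAA stress 2, and reads of the 2 copies may be split between them. The p53-induced paralog Rps27l had 10.2, 7.8, 11 and 11.5 CPM in the WT libraries, 12.2 and 13.2 CPM in CAA mock and 12.7 and 6.9 CPM in CAA stress, a stress value in CAA of -0.38 ± 0.29.

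Rpl36a and Rps29 had the next smallest p-values for stress in CAA. Rpl36a (chrX:134585654-134588062, mm10) had 101, 102, 109 and 111 CPM in the WT libraries, 113 and 140 CPM in CAA mock, and 97.7 and 63.8 CPM in CAA stress. Every WT stress library was above every WT mock library and every CAA stress library below every CAA mock library. Of all genes tested, 13.2% had the former and 19% the latter, and the share with both was not counted. The log2 fold changes were 0.12 ± 0.20 in WT and -0.65 ± 0.20 in CAA (edgeR adjusted p = 0.696), and the interaction of -0.77 ± 0.28 did not pass (edgeR adjusted p = 0.995). Rps29 had 106, 81.1, 92.5 and 123 CPM in WT, 98.1 and 129 CPM in CAA mock and 82.5 and 69.3 CPM in CAA stress (-0.58 ± 0.21 for stress in CAA, edgeR adjusted p = 0.696). Rpl39, a small protein of the exit tunnel, was likewise lowest in CAA stress 2, at 82.8 CPM against 118 to 176 CPM elsewhere (-0.56 ± 0.22, edgeR adjusted p = 0.696).

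**Figure D3:**
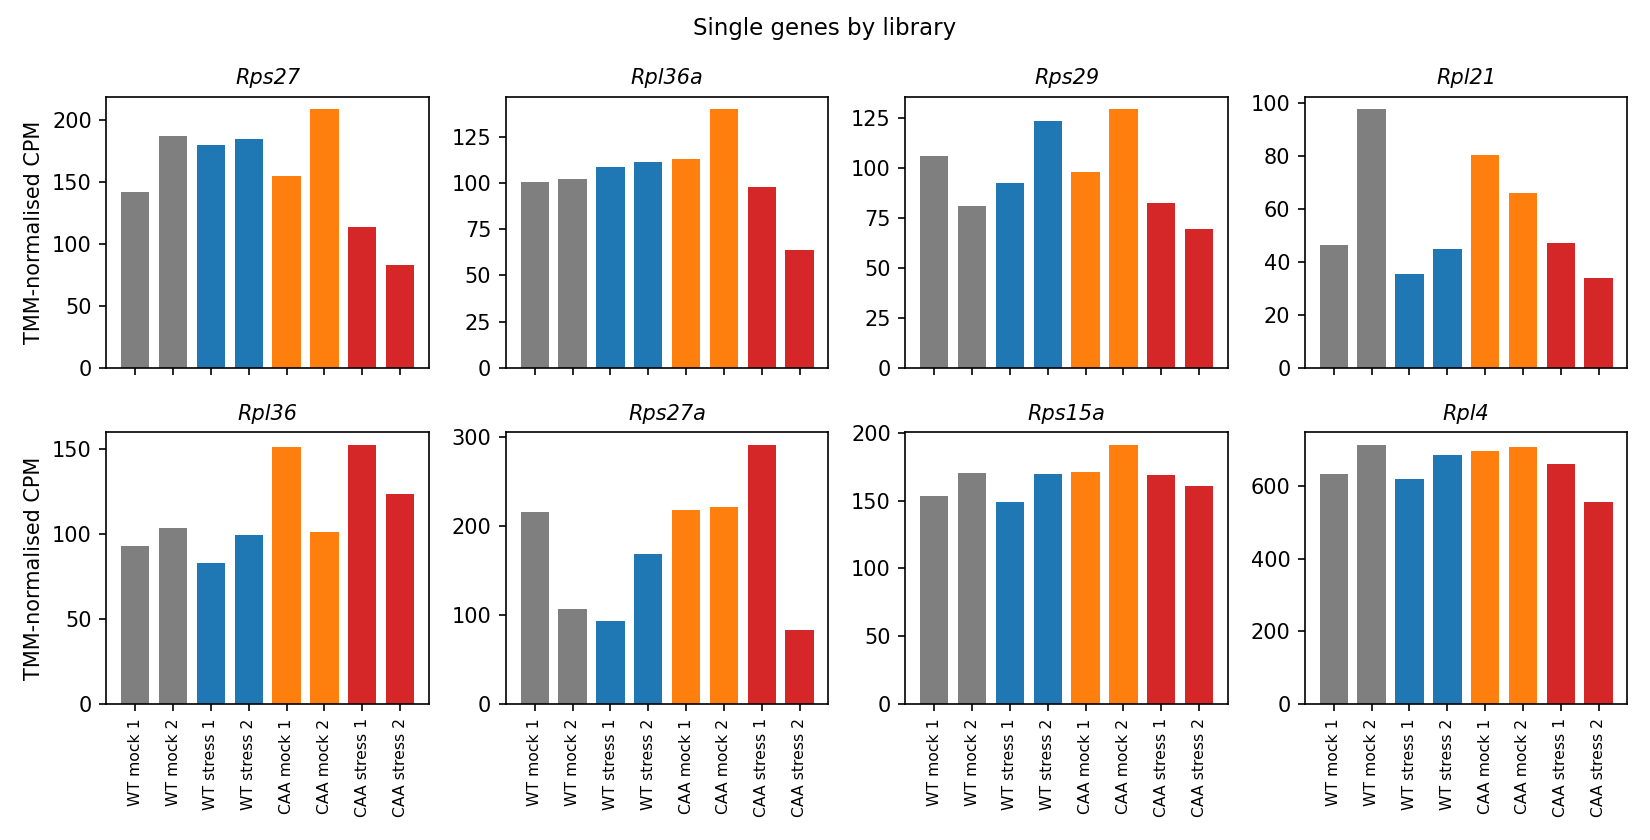
TMM-normalised CPM of 8 ribosomal protein genes in each library (bars start at 0, coloured by group). Rps27 is lowest in both CAA stress libraries at 114 and 83.0 CPM, Rps27a differs most between replicates, and Rps15a and Rpl4 are nearly level.

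In WT mice, stress gave a median log2 fold change of -0.06 over the 77 genes, 27 positive and 50 negative (all genes tested, median 0.00). The direction rested on single libraries: without WT mock 2 the median was 0.05 with 50 positive, and without WT stress 1 it was 0.03 with 45 positive. None passed in edgeR (0% of all genes called), and 1 of 77 had an unadjusted p under 0.05, which is 1.3%, against 1.59% of all genes. WT stress lay below WT mock without overlap for 8 genes (13.5% of all genes tested) and above for 2, Rpl36a and Rps27l (13.2%). Rpl21 (chr5:146832890-146837032, mm10) had 46.4 and 97.6 CPM in WT mock and 35.5 and 44.9 CPM in WT stress (-0.84 ± 0.33, edgeR adjusted p = 1), and 80.3 and 66.2 CPM in CAA mock against 47.3 and 34.1 CPM in CAA stress. Rps27l (0.32 ± 0.29) and Rps29 (0.21 ± 0.21) followed by unadjusted p.

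The interaction, which asks whether stress acted differently in CAA than in WT, had a median log2 value of -0.11 over the 77 genes, with 25 positive and 52 negative (all genes tested, median 0.00). No gene passed in edgeR (0% of all genes called), and 3 had an unadjusted p under 0.05, namely Rps27, Rpl36a and Rps29 (3.9%, against 3.46% of all genes). Without CAA stress 2 the median was 0.05, with 44 of 77 positive. Averaged over WT and CAA, stress gave a median of -0.12 with 72 of 77 negative, no gene past the threshold in edgeR (0% of all genes called), and 2 with an unadjusted p under 0.05 (2.6%, against 3.82%). Those were Rpl21 (-0.85 ± 0.23, edgeR adjusted p = 0.92) and Rps27 (-0.37 ± 0.15, edgeR adjusted p = 0.92), and Rpl30 followed (-0.27 ± 0.13, edgeR adjusted p = 0.92). Without CAA stress 2 the median for stress averaged was -0.02, with 45 of 77 negative.

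Averaged over treatment, CAA against WT gave a median log2 fold change of 0.12 with 64 of 77 positive (all genes tested, median 0.00, 50.2% positive). None passed in edgeR (0.0116% of all genes called), and 12 had an unadjusted p under 0.05, 11 of them positive (15.6%, against 8.38% of all genes). For 4 genes the lowest CAA library exceeded the highest WT library, namely Rps9, Rpl18, Rpl37 and Rpl27, of which Rpl18 and Rpl27 are named after their values were seen (4 of 77, against 2% of all genes tested). Rps9 had 186 to 239 CPM in WT and 241 to 328 CPM in CAA (0.39 ± 0.14, edgeR adjusted p = 0.555). Rpl37 had 102 to 132 CPM in WT and 135 to 175 CPM in CAA (0.36 ± 0.13, edgeR adjusted p = 0.572). Rpl36 had the smallest p (0.48 ± 0.15, edgeR adjusted p = 0.531), with 82.8 to 104 CPM in WT and 101 to 152 CPM in CAA, where WT mock 2 overlapped CAA mock 2. Without CAA stress 1 the median of the 77 was -0.002.

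**Figure D4:**
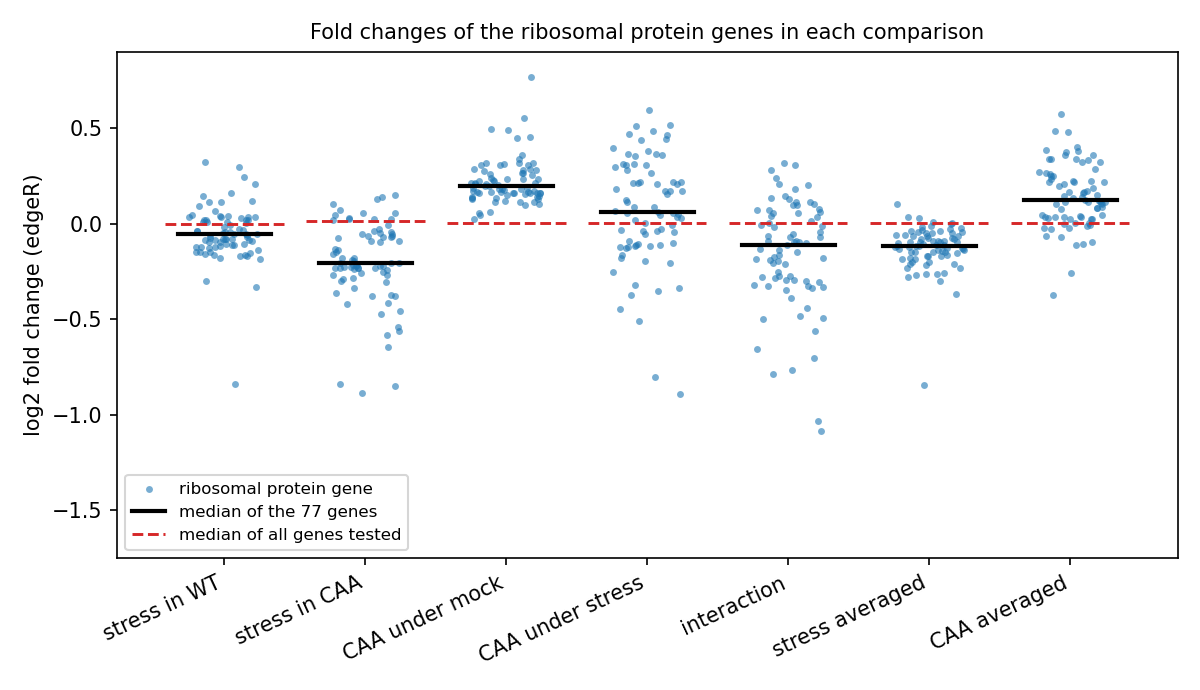
Log2 fold change of each of the 77 genes (points) in the 7 comparisons, with their median (black bar) and the median of all genes tested (dashed). All 77 points lie above 0 for CAA under mock, with a median of 0.19, and 64 lie below 0 for stress in CAA, with a median of -0.21.

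The number of genes called depended on the tool and on the filter for low counts. DESeq2 called 0 of the 77 genes in each comparison, where it called 0% of all genes for stress in WT, 0.0802% for stress in CAA, 0.13% for CAA under mock, 0.0817% for CAA under stress, 0.0034% for the interaction, 0.0102% for stress averaged and 0.364% for CAA averaged. With every gene of at least 1 count kept, edgeR called Rpl21 for stress in WT (adjusted p = 0.0262, 0.0374% of all genes) and stress averaged (3.32e-06, 0.166%). It called Rps27 for CAA under stress (0.000939, 0.408%), Rpl36 for CAA averaged (0.0245, 0.757%), Rps27 (0.000986) and Rpl21 (0.00486) for stress in CAA (0.38%), and none of the 77 for CAA under mock (0.278%) or the interaction (0.0577%). Without WT mock 1 and CAA stress 1, the libraries of high Xist, filtered edgeR called Rpl21 for stress averaged (-1.19, adjusted p = 0.049, 0.0167% of all genes). With the filter and all 8 libraries, the adjusted p of each of these was 0.531 or more, and the cause of the difference was not tested.

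The spread of the single genes over libraries was close to that of other protein-coding genes. The log2 difference between the highest and the lowest library had a median of 0.61 over the 77 genes, against 0.58 over the 9615 protein-coding genes with at least 10 CPM. Rps15a (0.36, 149 to 191 CPM), Rpl4 (0.36, 557 to 714 CPM) and Rpl6 (0.37, 297 to 383 CPM) were the most even. These and the uneven genes described next are those of at least 10 CPM. Rps27a, made as a fusion with ubiquitin, was the most uneven at 1.81, with 4004 and 1895 counts in WT mock, 1701 and 3059 in WT stress, 3741 and 3939 in CAA mock, and 5338 and 1545 in CAA stress. Its replicates differed by more than its groups (CAA averaged 0.48 ± 0.50). Among these, Rpl21 followed at 1.52 and Rpl7a at 1.49. Below 10 CPM, Rpl24 (1.72) and Rps10 (1.51) were also uneven, on the few counts given above. Rpl7a had 29.4 and 53.4 CPM in WT mock, 36.9 and 29.0 CPM in WT stress, 63.5 and 22.6 CPM in CAA mock and 27.3 and 46.0 CPM in CAA stress.

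Other members with a known special role are given here for CAA averaged alone. Their estimates in that comparison were smaller in size than those of Rps9, Rpl37 and Rpl36. Of the stalk proteins, Rplp1 and Rplp2 had CAA averages of 0.29 ± 0.15 and 0.32 ± 0.16, and Rplp0, the protein that anchors them, 0.12 ± 0.11. Rps19, a gene mutated in Diamond-Blackfan anaemia, had 0.22 ± 0.12, and Rps6 had 0.11 ± 0.12. Rpsa, also described as a laminin receptor, had 0.08 ± 0.13. The X-linked Rpl10 and Rps4x had 0.16 ± 0.12 and -0.07 ± 0.12. Rpl38, which in mouse embryos affects the translation of Hox messenger RNAs, had 0.14 ± 0.13, and Rps3, at the entry of the messenger RNA channel, 0.23 ± 0.13. Rpl13a and Rpl22, which has a paralog, Rpl22l1, had 0.03 ± 0.15 and 0.04 ± 0.12, and Rpl24 had -0.26 ± 0.38. The edgeR adjusted p-values of these CAA averages ranged from 0.612 to 0.962.

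Genes that work beside these showed a similar direction in part. Of 6 other ribosome components tested, 6 were positive for CAA under mock (median 0.20) and 4 of 6 negative for stress in CAA (median -0.20). Of 12 elongation factor and other TOP genes, 11 were positive for CAA under mock (median 0.10) and 11 negative for stress in CAA (median -0.23). The nucleolar Npm1 had the smallest p there (-0.53 ± 0.16, edgeR adjusted p = 0.696). The 26 initiation factor genes had medians of 0.02 and -0.15 in those comparisons, the 28 ribosome assembly genes 0.01 and 0.03, and the 8 p53 response genes 0.10 and 0.11. The 19 genes of mTOR and upstream regulation had -0.03 and 0.12, Mtor itself 0.46 ± 0.17 for stress in CAA (edgeR adjusted p = 0.696). Of 77 mitochondrial ribosomal protein genes tested, 60 were positive for CAA under mock (median 0.11) and 56 negative for stress in CAA (median -0.12). None of the genes in these lists passed the threshold in edgeR in any comparison.

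Genes outside the ribosome shared the pattern over the libraries in part. The 25 nuclear respiratory chain genes had median deviations of -0.02 and 0.04 in WT mock, -0.14 and -0.14 in WT stress, 0.25 and 0.01 in CAA mock, and 0.31 and -0.21 in CAA stress. They were thus high in CAA mock 1 and CAA stress 1 and low in CAA stress 2 like the ribosomal protein genes, but near 0 in WT mock 1 and CAA mock 2. For CAA under mock 25 of 25 were positive, while for stress in CAA 12 were positive and 13 negative. A further 311 protein-coding genes had a gene length under 1000 bases in the deposited table, which joins all annotated exons. Their median deviation was 0.21 in CAA mock 1, -0.01 in CAA mock 2 and 0.26 in CAA stress 1. It lay between -0.12 and 0.01 in the other 5. Transcripts of the ribosomal protein genes had a median of 681 bases, against 2863 for the other protein-coding genes tested. The relation of fold change to GC content differed between comparisons. Across genes, r was 0.36 in the 77 and 0.35 in 14576 other coding genes for stress in CAA, and 0.39 and 0.47 for CAA under stress. It was 0.05 and 0.06 for CAA under mock, where all 77 genes were positive, and -0.20 and -0.08 for stress in WT. For the interaction it was 0.38 and 0.34, for stress averaged 0.20 and 0.18, and for CAA averaged 0.35 and 0.34. These genes share libraries and length, so r is a description.

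A correction chosen after seeing the data took from each library the deviation that other coding genes of the same GC content and transcript length had. It left median deviations of the 77 genes of -0.05 and 0.07 in WT mock, -0.12 and 0.03 in WT stress, 0.08 and 0.05 in CAA mock and -0.01 and -0.09 in CAA stress. The range over libraries was thus 0.20 in place of 0.46. In the edgeR fit with this correction, the median was 0.05 for CAA under mock (60 of 77 positive), -0.13 for stress in CAA and 0.02 for CAA averaged. It was -0.07 for stress in WT (57 of 77 negative) and -0.09 for stress averaged (68 of 77 negative). For CAA under stress it was 0.01, and for the interaction -0.04. Rpl36 was 0.12 for CAA averaged in place of 0.48, while Rps27 was -0.79 for stress in CAA in place of -0.88.

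**Figure D5:**
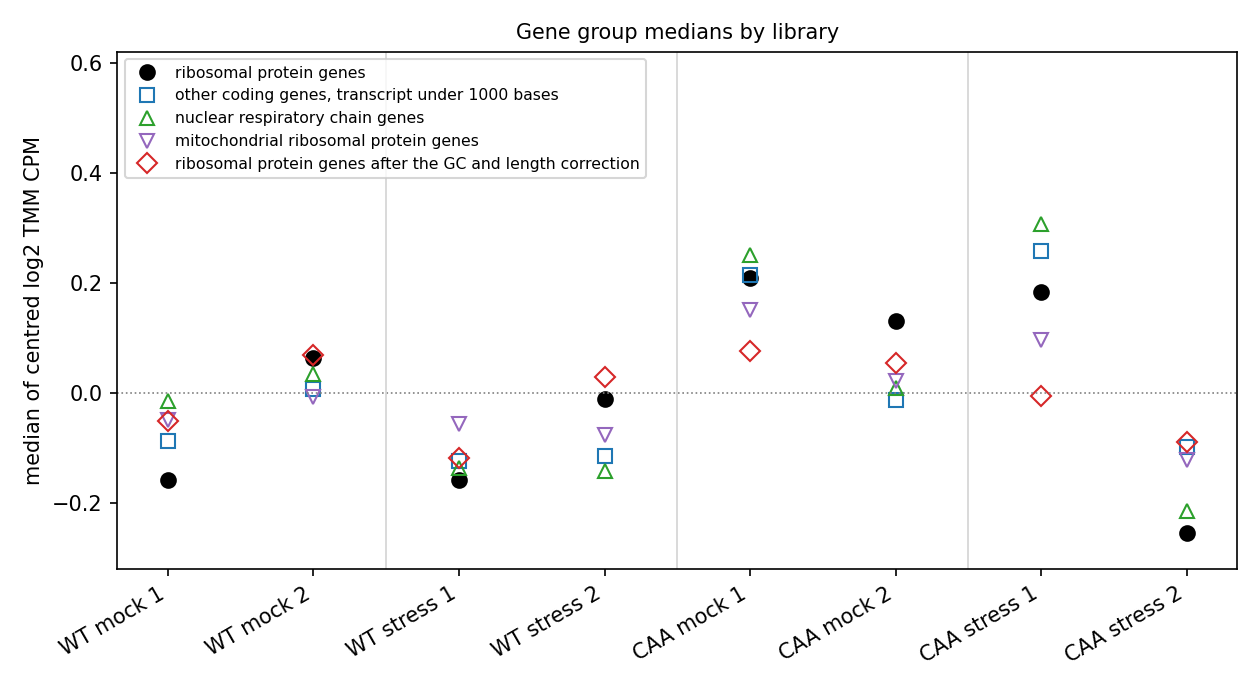
Median over genes of the centred log2 TMM-normalised CPM in each library for the ribosomal protein genes, short other coding genes, nuclear respiratory chain genes and mitochondrial ribosomal protein genes, and for the ribosomal protein genes after the GC and length correction. Short means a deposited gene length under 1000 bases, although the legend says transcript. The gene groups share high values in CAA mock 1 and CAA stress 1, and the corrected values stay between -0.12 and 0.08.

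Cell type markers also moved between libraries. The 7 oligodendrocyte and myelin markers summed to 7401 and 9528 CPM at the lower and higher library of WT mock, 5936 and 8753 in WT stress, 9488 and 15410 in CAA mock and 6070 and 14140 in CAA stress. For CAA under mock 7 of 7 were positive (median 0.50), beside the 77 positive ribosomal protein genes. Markers of brain parts moved in that comparison too. Positive were 0 of 9 for striatum (median -0.41), 1 of 6 for olfactory bulb (-2.09), 5 of 5 for thalamus (0.74) and 6 of 7 for hypothalamus (0.32). None of these markers passed the threshold in edgeR. The 8 neuronal markers summed to 6087 to 6457 CPM in WT mock, 6719 to 6721 in WT stress, 5101 to 5580 in CAA mock and 5021 to 6842 in CAA stress. The 6 astrocyte markers summed to 5519 to 5614 CPM in WT mock, 4386 to 5649 in WT stress, 5180 to 5923 in CAA mock and 4429 to 4717 in CAA stress, and 6 of 6 were negative for stress averaged (median -0.37, 3 with an unadjusted p under 0.05). The 6 fibroblast markers summed to 39.6 to 47.1 CPM over the WT libraries and 57.1 to 105 CPM over the CAA libraries. For CAA averaged 6 of 6 were positive (median 0.66, 4 with an unadjusted p under 0.05), beside 64 of the 77 ribosomal protein genes, and no marker of either list passed the threshold in edgeR. Choroid plexus markers, with 2 of 8 genes at 0 in some library, ranged from 17.4 to 532 CPM, and red cell markers, with 1 of 5 at 0 in some library, from 2.25 to 118 CPM. The part of these differences in tissue makeup in the ribosomal protein values was not tested.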

How the data were processed

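Gene counts and FPKM values for 8 brain libraries were used as the authors deposited them. Per the submitters' processing notes, the authors' counts come from HISAT2 2.0.5 alignments to mm10 and featureCounts 1.5.0-p3; the sources used here do not give strandedness or annotation. The deposited FPKM values use the gene lengths of the same tables. Libraries were grouped by the labels. The test was run in edgeR 4.0.16 (R 4.3.3): filterByExpr (minimum count 10, minimum total 15; 17182 genes), TMM, robust quasi-likelihood fit of 4 group means over 8 libraries, 7 contrasts, two-sided, Benjamini-Hochberg over all genes, threshold 0.05. Log2 CPM used a prior count of 2. Members and gene lists were chosen with earlier results of these data known. Members named were, per comparison, the 3 with the smallest p, the 5 highest and 5 lowest in FPKM, the 3 most and 3 least even of at least 10 CPM, Rps27l with its parent, and 17 set by role; of each list, up to 4 past the threshold or else from the 2 of smallest p. One gene these rules name is not reported here. Alternatives used DESeq2 1.42.0, limma 3.58.1 on log2 FPKM plus 1 or 0.1, other scalings and filters, the replicate block and left-out libraries. Transcript lengths and GC content came from GENCODE vM21. The fits for CAA under mock and CAA averaged were run on simulated data with planted changes of 2-fold or more. Smaller differences were not simulated. No pair of replicates agreed within sampling noise (chi-square 18.6 to 35.4 for each degree of freedom).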

Additional observations from a re-analysis of the deposited data

How the results depend on the processing

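Over the alternatives tried, the number of ribosomal protein genes called by edgeR stayed at 0 except in these. With no filter on low counts it was 1 for stress in WT, 2 for stress in CAA, 1 for CAA under stress, 1 for stress averaged and 1 for CAA averaged. Without the 2 libraries with high Xist it was 1 for stress averaged. That omission also gave medians of -0.43 for stress in CAA and -0.17, a change of sign, for CAA under stress. Leaving out each library in turn, the median ran from -0.14 to 0.05 for stress in WT, -0.43 to 0.0070 for stress in CAA, 0.09 to 0.32 for CAA under mock and -0.17 to 0.25 for CAA under stress. It ran from -0.34 to 0.054 for the interaction, -0.24 to -0.02 for stress averaged and -0.0017 to 0.21 for CAA averaged, and the number called stayed at 0. The extremes came without WT mock 1 or 2 for stress in WT and CAA under mock, and without CAA stress 1 or 2 for the other 5. For stress in WT, Rps29 ran from -0.016 without WT stress 2 to 0.41 without WT mock 1. With a replicate block the number called was 0 in each comparison and the medians were -0.06, -0.21, 0.18, 0.06, -0.14, -0.12 and 0.12 in the order of the 7 comparisons. Deviations of the same replicate number correlated at -0.27 to 0.14 between groups. With 2 libraries per group, these values cannot show whether the numbers pair the libraries. Of counts outside the mitochondrial genome, the genes took 1.64% in WT mock 1, 1.93% in WT mock 2, 1.64% in WT stress 1, 1.85% in WT stress 2, 2.09% in CAA mock 1, 2.07% in CAA mock 2, 2.07% in CAA stress 1 and 1.58% in CAA stress 2. Per transcript length, in place of FPKM, the highest gene was 537 times the lowest. The cause of these changes was not tested, and 2 libraries per group and the spread between them limit what could be called.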
